A study of Mus musculus with 6 samples.

Results

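The genes described here are 9 transcripts of mucosal defence and immunoglobulin transport: Pigr, Lcn2, Dmbt1, Reg3b, Reg3g, Duox2, Duoxa2, Nos2 and Saa3. They were chosen by name with earlier results of these data known, and all 9 had a row among the 23284 genes of the deposited table. RNA came from mouse stomach parietal cells, which secrete acid, sorted by flow cytometry for the red fluorescent protein tdTomato. The 3 control libraries carry the genotype label Transgenic-Tom. The 3 noggin libraries carry Transgenic-Tom-nog and express noggin, a secreted protein that binds and blocks bone morphogenetic proteins (BMPs), from an H+/K+-Nog transgene. The crosses described for the noggin animals combine H+/K+-Cre, H+/K+-Nog and Rosa26-tdTom, so the H+/K+ ATPase promoter of parietal cells directs both noggin and the Cre recombinase, and the fluorescent label marks any cell in which Cre has acted. The sources used here do not give the age of the mice, the number of animals behind a library, or whether the controls also carry H+/K+-Cre. P-values therefore measure the spread between these libraries.

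At mucosal surfaces, epithelial cells carry polymeric immunoglobulin A and M from the tissue to the lumen by way of the polymeric immunoglobulin receptor, which Pigr encodes. They also release lectins and scavenger proteins that bind bacteria, proteins that withhold iron, and enzymes that make hydrogen peroxide or nitric oxide. Many of these genes are known to be induced by interferon, interleukin-17 or interleukin-22, through STAT and NF-kappaB factors.

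Noggin libraries contained more transcript of Pigr, the one member of the 9 that passed the test, and the lectin genes Reg3g and Reg3b and the maturation factor gene Duoxa2 had positive fold changes that did not pass. Dmbt1, the most abundant member in controls, had a negative fold change that did not pass. The other 4 members, Lcn2, Duox2, Nos2 and Saa3, stayed under 1 FPKM (fragments per kilobase of transcript, scaled to the mapped fragments of a library, as made by the authors) in every library.

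Sequence upstream of the 4 members with positive fold changes is shown as a description, since of these only Pigr passed. Reg3g, Reg3b and Duoxa2 reached 1 FPKM in 3 or more libraries only with the noggin libraries, which favours a positive fold change. The sequence comes from a table of RefSeq promoters (GRCm38.p6, the build that mm10 names), in which 7 of the 9 members were matched. Each stretch ends at or before the RefSeq start of the gene, is written 5′ to 3′ on the strand of the gene, and holds no exon annotated in GENCODE M21. Capitals mark a motif match. For Pigr it is chr1:130826434-130826683 (plus strand), for Reg3g chr6:78468875-78469124 (minus strand), for Reg3b chr6:78370707-78370860 (plus strand) and for Duoxa2 chr2:122298650-122298899 (plus strand).
Pigr: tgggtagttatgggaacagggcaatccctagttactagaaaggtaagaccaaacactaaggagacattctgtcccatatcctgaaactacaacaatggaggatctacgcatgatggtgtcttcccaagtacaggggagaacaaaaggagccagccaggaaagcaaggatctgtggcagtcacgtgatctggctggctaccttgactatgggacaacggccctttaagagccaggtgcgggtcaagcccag
Reg3g: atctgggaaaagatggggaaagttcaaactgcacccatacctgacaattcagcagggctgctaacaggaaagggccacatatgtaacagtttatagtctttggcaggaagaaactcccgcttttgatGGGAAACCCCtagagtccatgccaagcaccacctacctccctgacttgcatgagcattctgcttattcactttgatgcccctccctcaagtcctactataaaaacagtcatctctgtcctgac
Reg3b: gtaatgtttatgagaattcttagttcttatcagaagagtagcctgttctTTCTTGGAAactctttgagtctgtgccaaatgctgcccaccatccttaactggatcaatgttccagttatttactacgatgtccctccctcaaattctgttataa
Duoxa2: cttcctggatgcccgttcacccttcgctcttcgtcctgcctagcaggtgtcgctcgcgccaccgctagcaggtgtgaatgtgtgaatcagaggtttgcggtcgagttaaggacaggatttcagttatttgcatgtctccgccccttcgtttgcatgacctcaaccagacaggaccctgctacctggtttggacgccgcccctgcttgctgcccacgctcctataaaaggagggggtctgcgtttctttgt

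The 250 bases upstream of each of the 7 members were searched on both strands for the NF-kappaB consensus, for the STAT motif TTCNNNGAA, for the interferon-factor motif (GAAA, NN, GAAA) and for GGCGCC, which BMP-activated Smads are known to bind. Reg3g held 1 NF-kappaB match, 123 to 114 bases before its start, and Reg3b held 1 match to TTCNNNGAA, 129 to 121 bases before its start. Saa3 held the interferon-factor motif once, 125 to 116 bases before its start. No match to the 4 motifs lay in these windows of Pigr, Duoxa2, Duox2 or Lcn2. The windows of Duox2, Lcn2, Reg3b and Saa3 also hold annotated exons of the same gene. Their longest exon-free stretches were 28, 53, 154 and 226 bases, so these searches were not confined to sequence outside the transcripts. Among 32851 upstream windows of the same length, 7.25% held the NF-kappaB consensus, 7.02% TTCNNNGAA, 2.98% the interferon-factor motif and 9.59% GGCGCC. A match is a stretch of letters and not a measured binding site. The Reg3 stretches are related in sequence: a local alignment of those printed covered 101 columns, of which 70 (69.3%) were identical. Reg3b and Reg3g lie 92802 bases apart on chromosome 6. Duox2 and Duoxa2 start back to back on chromosome 2, with 450 bases between them.

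A few facts of the whole set bear on the values below. Nog was at 0.871 to 1.97 FPKM in controls and at 2281 to 2734 FPKM in noggin libraries. The proton pump gene Atp4a was at 13385 to 16218 FPKM in controls and lower, at 5433 to 7619 FPKM, in every noggin library (log2 fold change -1.21, adjusted p = 0.124), and Atp4b was at 16877 to 21416 and at 21468 to 25184 FPKM. Of 10 parietal cell markers, 5 fell (Slc26a7, Slc4a2, Clic6, Esrrg and Hip1r) and 5 did not pass. The adjusted p of those that fell ran from 0.02945 (Hip1r) to 0.04997 (Slc26a7) in limma. The 10 markers had sums of 32243 to 39422 FPKM in controls and 28226 to 31551 FPKM in noggin libraries. The sequencing depth is unknown, so an exact 0 is reported as listed at 0. Noggin replicate 3 stood apart, with 542 of the 10644 tested genes listed at 0 against 19 to 34 in each other library. Total FPKM was 595736 to 669124 in controls and 797168 to 1188186 in noggin libraries. Log2 fold changes are differences of mean log2(FPKM + 1), noggin minus control, which understates the change of scarce transcripts. The limma test covered every gene that reached 1 FPKM in 3 or more libraries, and a gene was called at a Benjamini-Hochberg adjusted p under 0.05 over all tested genes.

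**Figure D1:**
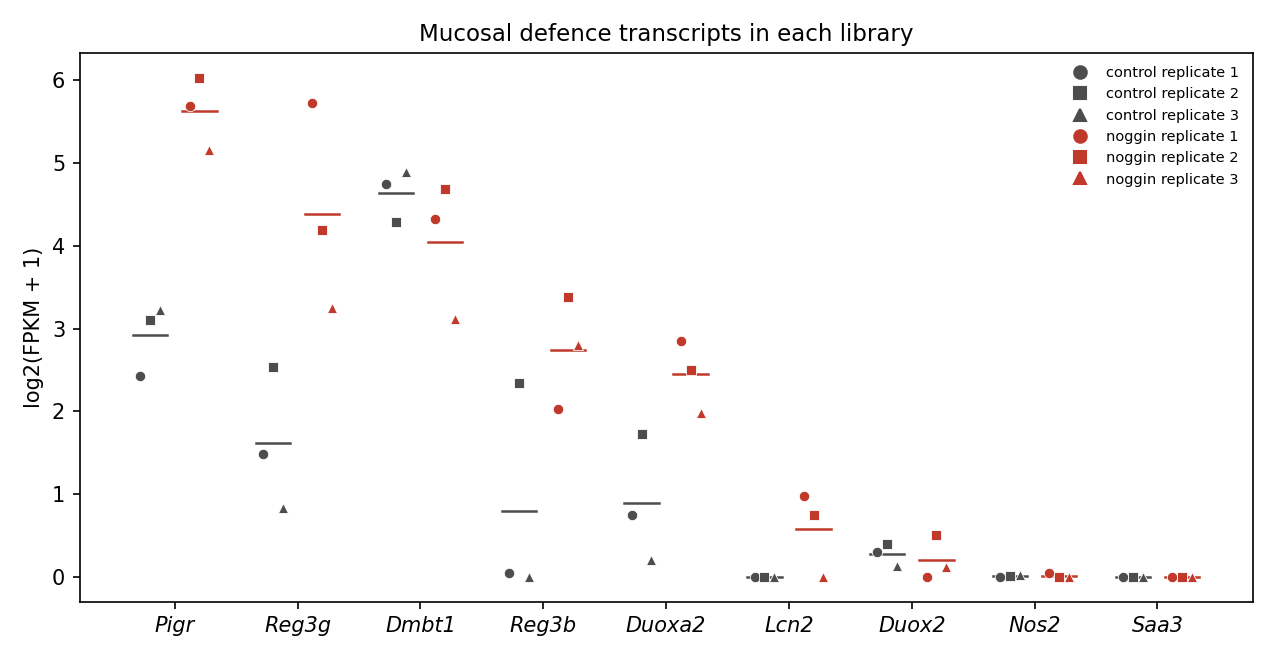
Level of each member in log2(FPKM + 1) on the vertical axis, in 3 control and 3 noggin libraries; each point is a library and each bar the mean of a group on this scale. The noggin points of Pigr, Reg3g and Duoxa2 lie above all control points, and Lcn2, Duox2, Nos2 and Saa3 lie near the floor.

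Pigr (chromosome 1, 130826684 to 130852249, plus strand) was at 4.36, 7.62 and 8.38 FPKM in control replicates 1, 2 and 3, and at 50.8, 64.3 and 34.7 FPKM in noggin replicates 1, 2 and 3. The lowest noggin library lay above the highest control. The means were 6.79 ± 2.13 and 50.0 ± 14.8 FPKM (SD, n = 3 each), a ratio of 7.36. On the log2 scale Pigr rose by 2.71 (SE 0.325; adjusted p = 0.0159 in limma), and 72.2% of the genes in the table had a lower mean in controls and 91.4% in noggin libraries. It was 27th by p among all tested genes and 48th by fold change among the 186 called higher. The share of all tested genes called higher was 1.75% (0.695% were called lower), against 1 of the 5 tested members. With libraries rescaled to the same total, 130 genes were called higher and 820 lower, in place of 186 and 74, and Pigr kept its call at 2.05 (adjusted p = 0.0370). Of its 3928 stretches of 50 bases, the read length, 18 also lie in transcripts of other genes. The call ended without control replicate 1 (adjusted p = 0.0798), control replicate 3 (adjusted p = 0.0609) or noggin replicate 1 (adjusted p = 0.0528), and when no filter on low values was used (adjusted p = 0.0680).

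Reg3g (chromosome 6, 78466269 to 78468872, minus strand) encodes a secreted C-type lectin that binds the peptidoglycan of Gram-positive bacteria. It was at 1.81, 4.78 and 0.787 FPKM in control replicates 1, 2 and 3, and at 52.0, 17.3 and 8.52 FPKM in noggin replicates 1, 2 and 3. All noggin libraries lay above all controls, and noggin replicate 1 was the highest. The log2 fold change of 2.77 did not pass (SE 0.681, adjusted p = 0.0765), with means of 2.46 ± 2.08 and 25.9 ± 23.0 FPKM (SD, n = 3 each). Without noggin replicate 3 Reg3g was called (3.34, adjusted p = 0.0419), and without each of the other libraries in turn it was not (2.10 to 3.23, adjusted p = 0.0630 to 0.336).

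Reg3b (chromosome 6, 78370657 to 78373466, plus strand), a lectin of the same family that acts mostly on Gram-negative bacteria, was at 0.0316 and 4.06 FPKM in control replicates 1 and 2 and listed at 0 in control replicate 3. In noggin replicates 1, 2 and 3 it was at 3.07, 9.46 and 5.97 FPKM. The groups overlapped, since control replicate 2 lay above noggin replicate 1. The log2 fold change was 1.94 (SE 0.684, adjusted p = 0.133). It was 1.64 (SE 0.694) after a correction for the median transcript length of each gene, 1.08 (SE 0.771) after one for the longest, and 5.55 (SE 2.21) with a pseudocount of 0.01. The ratio of Reg3g to Reg3b was 16.9 in noggin replicate 1, against 1.83 and 1.43 in noggin replicates 2 and 3. No stretch of 50 bases was shared between the annotated transcripts of the Reg3b and Reg3g genes, or with those of any other gene.

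Dmbt1 (chromosome 7, 131032053 to 131121630, plus strand) encodes a large scavenger receptor protein of mucus that binds and aggregates bacteria. It was at 25.9, 18.6 and 28.6 FPKM in control replicates 1, 2 and 3, and at 19.1, 24.7 and 7.66 FPKM in noggin replicates 1, 2 and 3. The groups overlapped, and noggin replicate 3 was the lowest of the 6. The log2 fold change of -0.60 did not pass (SE 0.416, adjusted p = 0.374). It was -0.14 (SE 0.245) without noggin replicate 3, -0.19 (SE 0.373) and -0.13 (SE 0.378) after the median and longest length corrections and -1.27 (SE 0.500) with all libraries rescaled to the same total. Dmbt1 overlaps Fgfr2 on the opposite strand, and no stretch of 50 bases of its transcripts was found in those of another gene.

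The enzyme pair that makes hydrogen peroxide at epithelial surfaces was uneven. Duox2 (chromosome 2, 122279247 to 122298449, minus strand), the oxidase, was at 0.235, 0.321 and 0.0923 FPKM in control replicates 1, 2 and 3. It was listed at 0 in noggin replicate 1 and had 0.417 and 0.0914 FPKM in noggin replicates 2 and 3, so the groups overlapped. It did not enter the reported test, and in limma without a filter on low values its log2 fold change was -0.068 (adjusted p = 0.810). Duoxa2 (chromosome 2, 122298900 to 122302885, plus strand), which brings the oxidase to the cell surface, was at 0.680, 2.32 and 0.153 FPKM in control replicates 1, 2 and 3, and at 6.23, 4.67 and 2.96 FPKM in noggin replicates 1, 2 and 3. All noggin libraries lay above all controls, and the difference of 1.55 on the log2 scale did not pass (SE 0.460, adjusted p = 0.103). Duoxa2 overlaps Duoxa1 on the opposite strand, and 634 of its 1543 stretches of 50 bases (41.1%) also lie in Duoxa1 transcripts, so their reads cannot be told apart without strand. The row of Duoxa1 itself was at 0.765 FPKM in noggin replicate 2, at 0.0159 to 0.0303 FPKM in controls and listed at 0 in the other two noggin libraries.

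The remaining members were scarce. Lcn2 (chromosome 2, 32384633 to 32388252), a protein that takes up bacterial iron carriers, was listed at 0 in all 3 controls and in noggin replicate 3, and had 0.968 and 0.677 FPKM in noggin replicates 1 and 2. Nos2 (chromosome 11, 78920787 to 78960254), the inducible nitric oxide synthase, reached at most 0.0343 FPKM, in noggin replicate 1. Saa3 (chromosome 7, 46711998 to 46715700), an acute phase protein, was listed at 0 in all 6 libraries. These members entered no test, and a low value is not shown to be absence at an unknown depth.

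Of the 9 members, 5 passed the filter on low values, and Reg3b, Reg3g and Duoxa2 passed it only through the noggin libraries, so the counts and the median that follow describe a filtered set. Among these 5, 4 had positive fold changes and 1 a negative one, and 3 (Pigr, Reg3g and Duoxa2) had every noggin library above every control. Of all tested genes 20.3% lay entirely above the controls and 18.0% entirely below. The median log2 fold change was 1.94 over these 5 and -0.03 over all tested genes. Limma called 0 members lower, and 0 were lower at an unadjusted p under 0.05. By mean level the order in controls was Dmbt1, Pigr, Reg3g, Reg3b and Duoxa2, where the range of Pigr lay below that of Dmbt1 and every later neighbour overlapped the one before. In noggin libraries it was Pigr, Reg3g, Dmbt1, Reg3b and Duoxa2, and each neighbour in that order overlapped the next. Control replicate 2 was the highest control for Reg3g, Reg3b and Duoxa2 but not for Pigr.

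**Figure D2:**
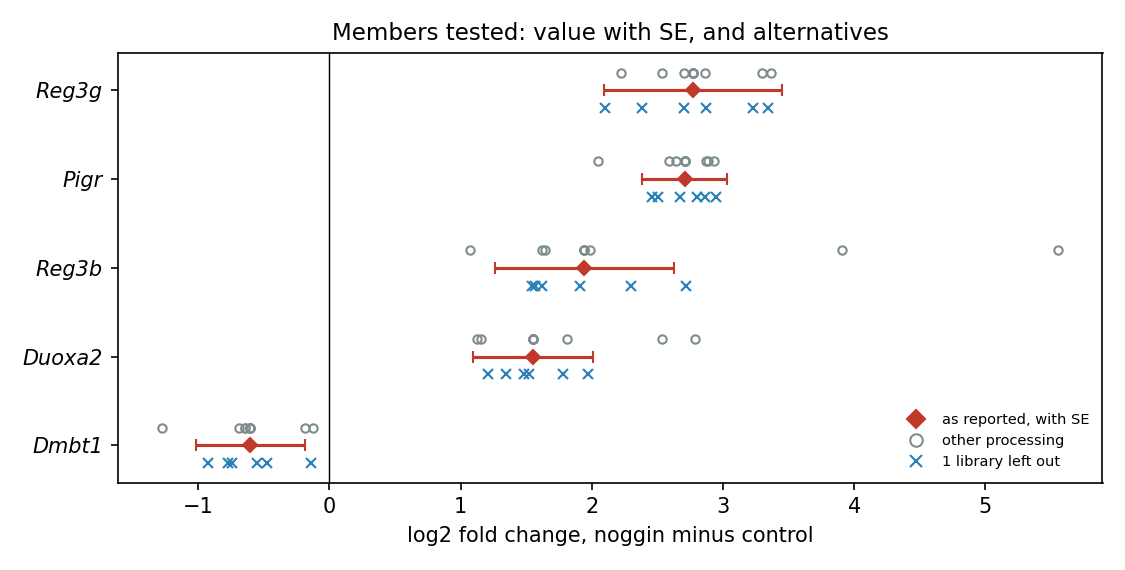
Log2 fold change, noggin minus control, of the 5 tested members; diamonds with bars are the reported values with SE, open circles other processing and crosses the fits with 1 library left out. Pigr stays between 2.05 and 2.94, the values of Dmbt1 stay below 0, and those of Reg3b spread from 1.08 to 5.55.

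Other genes of mucosal defence were read from 5 lists, also chosen with earlier results of these data known. They held 82 genes in the table, of which 38 were tested. Of these 38, 4 rose, 0 fell and 34 did not pass in limma, where the unadjusted p was under 0.05 for 16 higher and 1 lower. Over all 10644 tested genes the unadjusted p was under 0.05 for 1677 higher and 1162 lower, and 1.75% were called higher. The median log2 fold change was 0.64, and 19 lay entirely above and 1 entirely below the controls, against 20.3% and 18.0% of all tested genes. Hp, Reg1 and Itln1, an intelectin, passed the filter on low values only with the noggin libraries.

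Among antimicrobial proteins, 3 of 8 tested genes rose, 0 fell and 5 did not pass, at a median of 1.66. Wfdc2, a secreted protein with protease inhibitor folds, rose from 24.8 ± 2.81 to 91.4 ± 11.1 FPKM (1.84 on the log2 scale, SE 0.190, adjusted p = 0.00887). Pglyrp1, which binds bacterial peptidoglycan, rose from 26.8 ± 1.17 to 93.3 ± 25.4 FPKM (1.73, adjusted p = 0.0241). Lgals9, a galectin, rose from 354 ± 86.3 to 1064 ± 175 FPKM (1.60, adjusted p = 0.0312). The row 2210415F13Rik, an older symbol of Lypd8, which binds flagella of gut bacteria, was at 28.7 ± 10.2 and 271 ± 167 FPKM (2.96, adjusted p = 0.0511). Reg1, a relative of the Reg3 genes, was picked with its values in view. It was at 0.622, 3.45 and 0.0836 FPKM in control replicates 1, 2 and 3 and at 8.03, 5.88 and 5.39 FPKM in noggin replicates 1, 2 and 3 (1.89, adjusted p = 0.0958). Control replicate 2 was again the highest control. After the median length correction Wfdc2 was at 1.34 (adjusted p = 0.0383) and Pglyrp1 at 1.54 (adjusted p = 0.0319), and after the longest Wfdc2 was at 1.01 (adjusted p = 0.0787) and Pglyrp1 at 0.99 (adjusted p = 0.0433). Wfdc2 lost its call without control replicate 1 or 3 (adjusted p = 0.0660 and 0.0780). Pglyrp1 lost it without control replicate 1, 2 or 3 (adjusted p = 0.127, 0.0818 and 0.139). Lgals9 lost it without these 3 (adjusted p = 0.161, 0.0669 and 0.213), without noggin replicate 1 (adjusted p = 0.0585) and without the mean-variance trend (adjusted p = 0.0552). With no filter on low values Pglyrp1 (adjusted p = 0.0687) and Lgals9 (adjusted p = 0.0952) lost their calls. With libraries rescaled to the same total, Wfdc2 (1.14, adjusted p = 0.0387), Pglyrp1 (1.03, adjusted p = 0.0415) and Lgals9 (0.88, adjusted p = 0.0459) kept their calls at smaller fold changes.

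Among acute phase proteins, 1 of 4 tested genes rose and 3 did not pass. Hp, haptoglobin, which binds free haemoglobin, was at 0.985, 1.65 and 1.30 FPKM in control replicates 1, 2 and 3 and at 14.9, 11.9 and 6.73 FPKM in noggin replicates 1, 2 and 3. It rose by 2.35 (SE 0.365, adjusted p = 0.0312), and its groups did not overlap. It was at 2.23 (adjusted p = 0.0394) after the median length correction and at 1.80 (adjusted p = 0.0595) after the longest. With libraries rescaled to the same total it was at 1.83 (adjusted p = 0.0415). It lost its call with no filter on low values (adjusted p = 0.0993) and without control replicate 1, 2 or 3 (adjusted p = 0.161, 0.121 and 0.204) or noggin replicate 1 (adjusted p = 0.0582). Hamp, the iron hormone hepcidin, was at 20.4 ± 12.8 and 167 ± 181 FPKM (2.61, adjusted p = 0.101). Lrg1, a glycoprotein of inflammation, had 1.34 (adjusted p = 0.152) and Cfb, a complement factor, 0.61 (adjusted p = 0.263).

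Among oxidant enzymes, limma called 0 of 4 tested genes (1 higher at an unadjusted p under 0.05). Cyba, a membrane subunit of NADPH oxidases, was at 12.6 ± 3.48 and 45.0 ± 20.2 FPKM (1.70, adjusted p = 0.0511, 1.55 after the median and 0.81 after the longest length correction). With libraries rescaled to the same total Cyba was at 1.02 (adjusted p = 0.0747). Noxa1, an activator subunit, had 1.13 (adjusted p = 0.203), and Arg2, an arginase, -0.94 (adjusted p = 0.395). Noxo1, an organizer subunit, had 0.06 (adjusted p = 0.958), which turned to -0.30 with libraries rescaled to the same total and was 0.74 without noggin replicate 3, where it is listed at 0. In the immunoglobulin transport list 1 gene could be tested and limma called 0, with 0 at an unadjusted p under 0.05: Fcgrt, the neonatal Fc receptor, had -0.05 (adjusted p = 0.972), 0.49 with quantile normalization and 0.90 without noggin replicate 3, in which it was at 0.0576 FPKM.

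Among receptors and factors upstream of these genes, limma called 0 of 21 (5 higher and 1 lower at an unadjusted p under 0.05), at a median log2 fold change of 0.06. Socs3, a feedback inhibitor of STAT3 signalling, was at 84.7 ± 18.1 and 43.5 ± 11.8 FPKM (-0.96, adjusted p = 0.0919). Nfkbia, the inhibitor that NF-kappaB induces, had 0.88 (adjusted p = 0.0972), and Bcl3, an NF-kappaB cofactor, 0.84 (adjusted p = 0.0961). With libraries rescaled to the same total, Nfkbia was at 0.17 (adjusted p = 0.675) and Bcl3 at 0.16 (adjusted p = 0.757). Socs3 was called lower under that rescaling (-1.66, adjusted p = 0.0395) and with quantile normalization (-1.27, adjusted p = 0.0467). It was also called lower without noggin replicate 2 (-1.15, adjusted p = 0.0320).

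**Figure D3:**
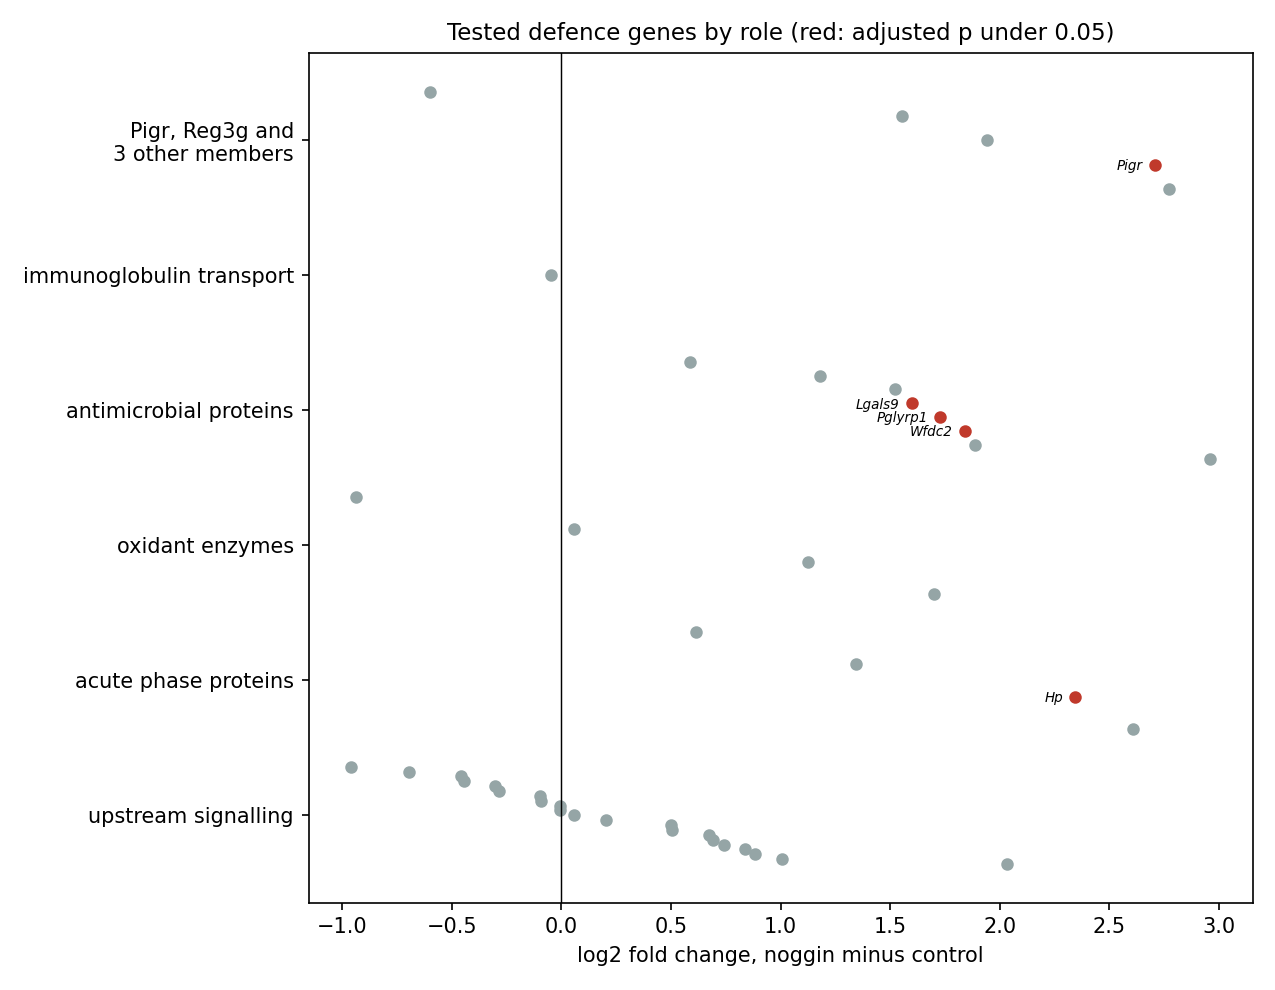
Log2 fold change, noggin minus control, of every tested gene by role; each point is a gene, and red points with names passed at an adjusted p under 0.05. The antimicrobial and acute phase points lie to the right of 0, and the 21 upstream genes lie on both sides of it.

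Markers of some other cell types were also higher in noggin libraries. In sorted cells measured in bulk a change in the number of such cells and a change in RNA per cell cannot be told apart. All 5 mucous neck cell markers (Muc6, Tff2, Gkn3, Aqp5 and Agr2) rose in limma. The adjusted p was 0.02945 for Agr2 and lay near the threshold for the others, at 0.0443 (Muc6) to 0.04997 (Gkn3). Their summed level, 2456 to 3362 FPKM in controls, reached 25864, 10765 and 13024 FPKM in noggin replicates 1, 2 and 3. The ratio of Pigr to the neck mucin gene Muc6 was 0.119, 0.220 and 0.423 in control replicates 1, 2 and 3 and 0.288, 0.577 and 0.456 in noggin replicates 1, 2 and 3, so these groups overlapped. The 9 leukocyte markers summed to 1.36 to 2.48 FPKM in controls, but to 28.9, 14.4 and 47.6 FPKM in noggin replicates 1, 2 and 3. The 9 macrophage markers summed to 3.03 to 3.46 FPKM in controls, but to 15.0, 18.5 and 137 FPKM in noggin replicates 1, 2 and 3. They were uneven in noggin replicate 3. There Lyz2 was at 52.6 FPKM, C1qa, C1qb and C1qc at 19.8 to 24.2 FPKM and Cd14 at 18.0 FPKM. Cd68, Csf1r and Mrc1 were listed at 0 in that library. Noggin replicate 3, the highest for the macrophage and leukocyte sums, was the lowest noggin library for Pigr, Reg3g and Duoxa2. For Reg3b it was at 5.97 FPKM, above the 3.07 FPKM of noggin replicate 1. It is also the library with 542 tested genes listed at 0. Whether that, or the leukocyte and macrophage sums, bears on its values for these members was not tested. Plasma cells, the source of the immunoglobulin that Pigr carries, were checked with 4 markers in the table, which summed to 2.66 to 6.78 FPKM in controls and 6.25 to 24.9 FPKM in noggin libraries. Derl3, an endoplasmic reticulum gene of many secretory cells, made up most of this, and the J chain gene, listed as Igj, was at 0 to 0.0249 FPKM in controls and 0.0145 to 0.349 FPKM in noggin libraries. The neutrophil genes S100a8 and S100a9 were listed at 0 in all 6 libraries, and the 8 neutrophil markers summed to 0.458 to 5.13 FPKM. Of 6 enteroendocrine markers, 2 rose, the granule protein gene Chga (2.92 on the log2 scale, adjusted p = 0.0312) and the ghrelin gene Ghrl (3.97, adjusted p = 0.0159), and 4 did not pass. Their sum was 441 to 2678 FPKM in controls and, in noggin replicates 1, 2 and 3, 1893, 28591 and 21244 FPKM. The gastrin gene Gast made up most of the sum in noggin replicates 2 and 3, at 26026 and 14693 FPKM. It was at 22.3 FPKM in noggin replicate 1 and at 203 to 2226 FPKM in controls. Over 6 surface pit markers the sums were 22255 to 26496 FPKM in controls and 23296 to 49766 FPKM in noggin libraries. Over 5 chief cell markers they were 39981 to 71323 and 44369 to 115654 FPKM, so the groups overlapped in both sums. The pit markers differed in sign and limma called 0 of them. Muc5ac (-1.19, adjusted p = 0.0635) and Dpcr1 (-0.71, adjusted p = 0.201) lay below all controls in every noggin library. Gkn1, Gkn2, Tff1 and Psca had positive fold changes. Whether the neck, enteroendocrine, leukocyte, macrophage or parietal markers have a part in the values of Pigr or Reg3g was not tested.

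**Figure D4:**
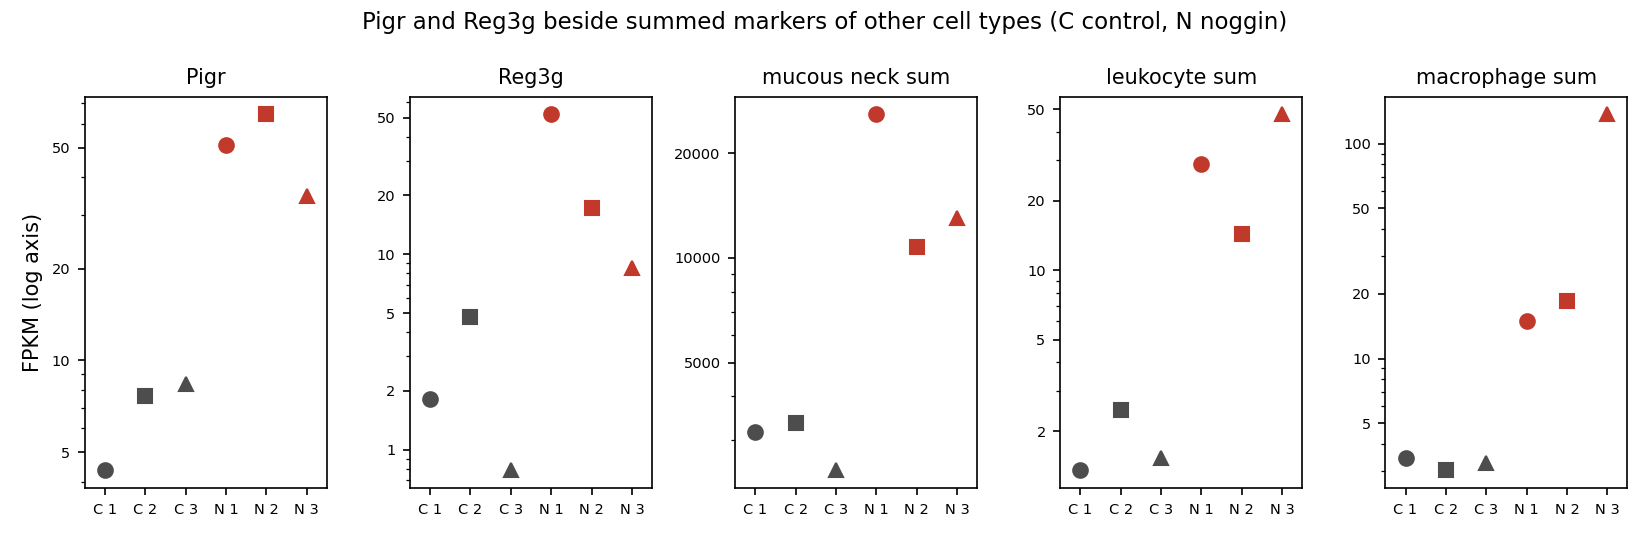
FPKM on log axes of Pigr, Reg3g and the summed markers of mucous neck cells, leukocytes and macrophages in control (C) and noggin (N) libraries; each point is a library. All 5 panels have every noggin library above every control. Noggin replicate 3, in which 542 tested genes are listed at 0, is highest for the leukocyte and macrophage sums and lowest among noggin libraries for Pigr and Reg3g. The order of the libraries was not tested.

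For each tested member, the 3 genes nearest in pattern were taken from the 7220 tested genes averaging 5 FPKM or more. Likeness was the root mean square difference of log2(FPKM + 1), centred on the mean of each gene, over the 6 libraries. Nearest to Pigr were Hp (0.315), H2-Q4 (0.323), a class I gene with close copies among which reads may be divided, and Klk1 (0.359), a secreted kallikrein. Nearest to Reg3g were Beta-s (0.303), a beta globin gene, AA467197 (0.406) and Pcolce (0.449), a collagen processing protein. Near to Reg3b were Irf9 (0.633), a factor of the interferon response, and Lgals3bp (0.659), a secreted glycoprotein, and the nearest gene lay farther from Reg3b than from any other tested member. Nearest to Duoxa2 were Tubb3 (0.299), Tap1 (0.326), a peptide transporter of antigen presentation, and Rpl30 (0.342). Nearest to Dmbt1 were Atp2a3 (0.108), a calcium pump, Mier2 (0.118) and Tmem115 (0.118). Among pairs of members the difference ran from 0.705 for Reg3b and Duoxa2 to 1.90 for Reg3g and Dmbt1. Each tested member had 3 genes outside the group nearer to it than any other member. With 7220 candidates against few tested members this was likely in advance, and it does not show whether the members move alike. These distances describe 6 libraries and carry no test.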

How the data were processed

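RNA of sorted parietal cells was measured in 6 libraries, 3 control and 3 noggin, grouped and numbered by the sample titles. Per the labels' protocols, SMART-Seq Ultra Low Input V3 libraries were read as single 50 base reads on a HiSeq2500. The deposited table holds FPKM per gene and library, made by the authors. Tools named in the submitters' processing notes are FastQC 0.10.0 and bcl2fastq, with mm10 as the build. The aligner, quantifier, annotation and use of strand were not given in the sources used here, and the depth, and so the counting precision, is unknown.

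Values were transformed to log2(FPKM + 1). The 10644 genes that reached 1 FPKM in 3 or more libraries were tested with limma 3.58.1 in R 4.3.3, two-sided, with a mean-variance trend and the group as the only term, with Benjamini-Hochberg adjustment over all of them. The fit was tested on simulated data. Coordinates, transcript lengths and shared stretches of 50 bases came from GENCODE M21 (GRCm38); of the symbols 20911 matched directly, 1914 by an older symbol and 459 not at all. The length correction removed each library's lowess trend (span 0.3) of its deviation from the gene mean, by median and, added after seeing the data, by longest transcript, since the median for Pigr (784 bases) is far under its longest (3849 bases). Alternatives were 2 other pseudocounts, 2 other filters, rescaling, quantile normalization, no trend, a replicate block and the omission of each library.

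The members and gene lists were chosen with earlier results of these data known. Named were all 9 members, up to 4 genes per defence list (called ones by size, then by unadjusted p) and the 3 nearest genes of each tested member; some genes that the rule names are not reported here. Of the marker genes Igha, Ighm, Igkc and Ly6g had no matched row and were not used here.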

Additional observations from a re-analysis of the deposited data

How the results depend on the processing

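Over all tested genes 186 were called higher and 74 lower. The numbers were 85 and 26 with a pseudocount of 0.1, 72 and 21 with 0.01, 8 and 4 without a filter, 66 and 17 without the mean-variance trend, 128 and 32 with the replicate block, and 88 and 32 with length correction by the longest transcript. Quantile normalization gave 243 and 231. Rescaling to the same total gave 130 and 820, with the median over all tested genes at -0.63 in place of -0.03. Leaving out 1 library gave 4 to 1187 higher and 5 to 825 lower. Omitting control replicate 1 left 4 and 5, omitting control replicate 2 left 39 and 7, omitting control replicate 3 left 7 and 5, omitting noggin replicate 1 left 44 and 21, omitting noggin replicate 2 gave 1187 and 825, and omitting noggin replicate 3 gave 311 and 280.

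The number of members called higher was 0 without a filter, 2 with quantile normalization (Pigr, and Duoxa2 with an adjusted p = 0.0465) and 2 with the replicate block (Pigr, and Reg3g with an adjusted p = 0.0433), and 0 to 2 with 1 library left out (Pigr and Reg3g without noggin replicate 3). No member was called lower in any of the 16 alternatives, and the 5 tested members kept their sign in all that gave a value. Other defence genes called higher were 4 in the reported fit, 1 without a filter, 7 with a filter of 5 FPKM, 7 with quantile normalization, 2 with the longest-transcript correction and 0 to 9 with 1 library left out. Those called lower were 1 with rescaling, 1 with quantile normalization and 0 to 2 with 1 library left out.

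Fcgrt turned to 0.49 with quantile normalization, and ran from -0.55 to 0.90 with 1 library left out. Noxo1 turned to -0.64 and -1.69 with pseudocounts of 0.1 and 0.01, -0.30 with rescaling, and -0.0687 and -0.13 with the median and longest length corrections, and ran from -0.33 to 0.74 with 1 library left out. The cause of these changes was not tested. The deviations of same-numbered libraries from their group means had correlations of 0.105, -0.141 and 0.005. With so few libraries in each group, these values cannot decide whether the numbers pair libraries, for example by batch. The block is therefore given only as an alternative. Lgals9 lost its call with the block (adjusted p = 0.0576).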

Other observations

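Some other defence genes, named after their values were seen, differed widely among noggin libraries. Lyz2, the lysozyme of macrophages, was at 0.187, 0.336 and 0.720 FPKM in control replicates 1, 2 and 3 and at 0.941, 5.77 and 52.6 FPKM in noggin replicates 1, 2 and 3. Lyz1, the lysozyme of Paneth cells, was at 0.0330 to 0.0668 FPKM in controls and at 2.96, 0.466 and 6.03 FPKM in noggin replicates 1, 2 and 3. Il22ra1, a receptor subunit for interleukin-22, was at 3.14 FPKM in noggin replicate 3 and at or under 0.131 FPKM in each other library. Muc1, a membrane mucin, was tested and did not pass, at 188, 132 and 122 FPKM in control replicates 1, 2 and 3 and at 220, 322 and 499 FPKM in noggin replicates 1, 2 and 3 (log2 fold change 1.18, adjusted p = 0.0925).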
